A study of Mus musculus with 6 samples.

Results

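Mitochondrial ribosomal protein genes are the nuclear genes that encode the protein components of the ribosome inside mitochondria, with symbols beginning Mrpl for the large and Mrps for the small subunit. They were taken as every gene whose symbol in the platform annotation has that form followed by a number, from probe sets annotated with 1 symbol, and each gene was read from the probe set with the highest mean over all 6 arrays. This gave 73 genes of 17097 genes tested. The symbol alone made a gene a member, and the presence of its protein in the ribosome was not measured here. Mrpl22, Mrpl45, Mrpl51, Mrps18c and Mrps28 were not analysed here.

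Messenger RNA was measured on 6 one-colour arrays from CD4+CD25- T cells of female C57BL/6 mice. In the BTNL2 wells the plate carried anti-CD3 at 2 µg/ml, an antibody that triggers the T cell receptor, with a B7-2 Fc fusion protein at 3 µg/ml and a BTNL2 Fc fusion protein at 11 µg/ml. In the B7-2 wells it carried the same anti-CD3 and B7-2, a ligand of the costimulatory receptor CD28, with control IgG in place of BTNL2, which belongs to the butyrophilin-like proteins. In the anti-CD3 wells it carried anti-CD3 and control IgG alone. Cells of every well were kept for 4 days with 2 cytokines, 0.36 ng/ml TGF-beta and 10 ng/ml IL-2, so each difference is a difference among cells already given both. Each group has 2 cultures with 1 array each. No label says that the 2 came from separate animals, so the p-values measure only the spread between these cultures. The cells are called splenic in the design text and splenic and lymph node cells in another label.

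The mitochondrial ribosome makes the few proteins that mitochondrial DNA encodes, which are core subunits of the respiratory chain and of ATP synthase. Its RNAs come from mitochondrial DNA, whereas all of its proteins are encoded in the nucleus, made in the cytosol and imported. Some of these proteins have a counterpart in bacterial ribosomes, and others occur only in mitochondria. T cells enlarge their mitochondria and their respiratory capacity after activation, and CD28 engagement is known to contribute to that growth.

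Promoters of such genes are known for sites of NRF1, of the ETS factor GABP and of YY1, all regulators of nuclear genes for mitochondrial proteins. A window around the start site was found in RefSeq (GRCm38.p6) for 65 of the 73 genes. Windows for Mrpl13, Mrpl15, Mrpl19, Mrpl38, Mrpl4, Mrpl54, Mrps34 and Mrps35 were not analysed here. The 4 stretches printed, each 280 bases with the last 30 downstream of the start, show 1 example per motif, from the gene of highest mean intensity with a match inside the stretch. Capitals mark exact matches on either strand to GCATGCGC (NRF1), CCGGAAG (ETS, GABP), AANATGGCG (YY1) or CACGTG (the E-box bound by MYC). Mrps18b is at chr17:35916411-35916690 on the minus strand, with an NRF1 match at position -223 from the start. Mrpl52 is at chr14:54426659-54426938 on the plus strand, with ETS matches at -47 and 2. Mrps30 is at chr13:118387223-118387502 on the minus strand, with a YY1 match at 15. Mrpl2 is at chr17:46645971-46646250 on the plus strand, with an E-box at -131.
Mrps18b: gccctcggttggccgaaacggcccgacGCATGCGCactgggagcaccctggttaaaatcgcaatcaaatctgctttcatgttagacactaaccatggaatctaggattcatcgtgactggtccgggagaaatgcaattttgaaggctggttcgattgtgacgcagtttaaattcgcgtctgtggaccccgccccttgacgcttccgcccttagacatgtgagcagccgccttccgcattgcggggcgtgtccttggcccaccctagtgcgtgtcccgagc
Mrpl52: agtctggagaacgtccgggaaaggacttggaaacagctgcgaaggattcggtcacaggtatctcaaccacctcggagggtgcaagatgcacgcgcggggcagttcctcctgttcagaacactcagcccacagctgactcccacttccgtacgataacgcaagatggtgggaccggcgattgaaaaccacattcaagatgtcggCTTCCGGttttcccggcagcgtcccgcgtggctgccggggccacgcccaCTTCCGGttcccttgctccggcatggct
Mrps30: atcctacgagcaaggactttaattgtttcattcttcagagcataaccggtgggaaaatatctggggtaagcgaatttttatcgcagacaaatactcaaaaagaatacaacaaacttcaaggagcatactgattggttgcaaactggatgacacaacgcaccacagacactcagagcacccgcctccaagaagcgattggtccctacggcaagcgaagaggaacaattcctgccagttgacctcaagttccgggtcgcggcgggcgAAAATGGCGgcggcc
Mrpl2: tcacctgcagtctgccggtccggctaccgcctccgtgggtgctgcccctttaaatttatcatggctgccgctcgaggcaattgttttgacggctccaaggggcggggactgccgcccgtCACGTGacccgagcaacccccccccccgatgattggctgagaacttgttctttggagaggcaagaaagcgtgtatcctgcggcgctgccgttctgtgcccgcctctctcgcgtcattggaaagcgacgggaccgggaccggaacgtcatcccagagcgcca

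At least 1 of these motifs was found in the 300-base windows of 36 of the 65 genes, and none in the other 29. The ETS motif was held by 23 of the 65 genes (35.4%), against 12.9% of 17492 protein-coding genes. YY1 letters were held by 11 genes (16.9%, against 3.64%) and NRF1 letters by 7 (10.8%, against 3.94%), whereas the E-box was held by 4 (6.15%, against 8.91%). Counted by window, the E-box was in 6 of 71 (8.45%), against 7.15% of all 32851 windows. Mrpl27, Mrpl58, Mrps18a and Mrps27 held both the ETS and the YY1 motif. A start site facing the gene from the opposite strand lay within 1000 bases for 22 of the 65 genes (33.8%), against 8.48% of the protein-coding genes. One such pair joined members, Mrpl46 and Mrps11, whose starts are 42 bases apart, and others joined Mrpl43 to Twnk, the mitochondrial DNA helicase (116 bases), and Mrps12 to Sars2, the mitochondrial seryl-tRNA synthetase (147 bases). A match is a match of letters, and binding was not measured here.

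**Figure D1:**
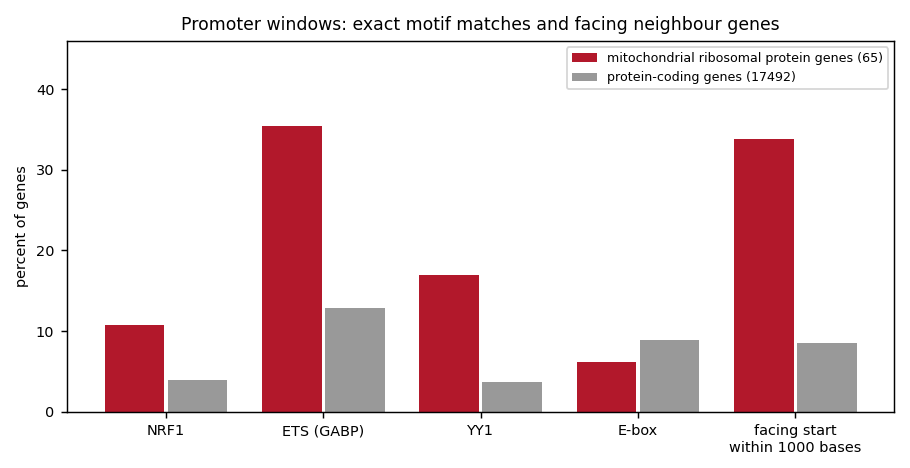
Percent of genes (y axis) whose 300-base promoter window holds each motif, and percent with a facing start site within 1000 bases, for 65 mitochondrial ribosomal protein genes (red) and 17492 protein-coding genes (grey). The red bars are higher for NRF1, ETS, YY1 and facing starts, and lower for the E-box (6.15% against 8.91%). Counted by window, the E-box share was not lower (8.45% against 7.15%).

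Values are RMA intensities on a linear scale, comparable between arrays for one gene but not between genes. Their median over all probe sets was 18.4 to 18.8 per array, and nonspecific control probe sets had medians of 3.68 to 4.49. Duplicates correlated at 0.997 to 0.998 and arrays of different groups at 0.974 to 0.987 across genes, which are not independent replicates. Summed intensity of 6 T cell markers was 12142 and 12099 in BTNL2 wells, 12584 and 12932 in B7-2 wells, and 16938 and 16402 in anti-CD3 wells, a sum carried by the bright Cd3 genes. Of the 6, Cd5 (log2 change -1.01) and Cd28 (-0.75) fell in BTNL2 over B7-2, with limma adjusted p of 0.000318 and 0.00225, and Cd3d, Cd3g and Cd28 fell in B7-2 over anti-CD3. The 2 CD8 genes summed to 1073 and 1016 in BTNL2 wells, 161 and 137 in B7-2 wells, and 370 and 385 in anti-CD3 wells. Of 3 B cell markers, 3 rose in BTNL2 over B7-2 and 2 (Cd79a and Cd79b) fell in B7-2 over anti-CD3, whereas in BTNL2 over anti-CD3 Ms4a1 rose (1.33) and Cd79b fell (-0.39). Their sums were 565 and 730 in BTNL2 wells, 284 and 263 in B7-2 wells and 555 and 520 in anti-CD3 wells. Of 3 NK cell markers Klrd1 alone was called, at 201 and 220 in BTNL2 wells, 32.5 and 42.2 in B7-2 wells and 129 and 149 in anti-CD3 wells. The sums of the 3 were 246 and 258 in BTNL2 wells, 65 and 77.9 in B7-2 wells and 166 and 180 in anti-CD3 wells. Klrb1c stayed at 25.7 to 38.7 and Ncr1 at 4.75 to 6.62, near the nonspecific controls. The 4 myeloid markers summed to 44.1 to 52.1 on every array. The 3′ to 5′ ratio of Gapdh was 1.40 and 1.43 in BTNL2 wells, against 1.27 to 1.37 on the other 4 arrays, and 18S rRNA gave 1308 to 2019 on 5 arrays but 683 on anti-CD3 array 2. The part of these differences in the results below was not tested. In bulk RNA, fewer cells of a type and less RNA per cell cannot be told apart.

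Nearly all of the genes gave signal well above those controls. The mean intensity over the 6 arrays ranged from 25.8 for Mrpl47 to 5420 for Mrpl52, with a median of 894. After Mrpl47, the next dimmest gene was Mrps5 at 113. The median intensity of the 73 genes was 876 and 927 in BTNL2 wells, 915 and 922 in B7-2 wells, and 757 and 807 in anti-CD3 wells. Both anti-CD3 arrays thus lay below the other 4 arrays. Duplicates differed by a median of 0.08 on the log2 scale in BTNL2 wells, 0.07 in B7-2 wells and 0.06 in anti-CD3 wells, against 0.12, 0.11 and 0.11 over all genes. Mrpl47 was the exception, with its 2 BTNL2 arrays 0.8 apart.

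The first comparison asked what B7-2 added to anti-CD3. Relative to anti-CD3 wells, 25 of the 73 genes (34.2%) rose and 0 fell in B7-2 wells, where a call is an adjusted p under 0.05 (limma, Benjamini-Hochberg over 17097 genes). Over all genes, 11.2% rose and 13.3% fell. Without adjustment, 36 of the 73 were higher and 3 lower at p under 0.05. The log2 change had a median of 0.21, from -0.33 for Mrps6 to 0.78 for Mrpl1, and was positive for 62 genes and negative for 11, whereas the median over all genes was -0.00. Rises of called genes ran from 1.22-fold to 1.72-fold, and 10 genes exceeded 1.5-fold. The median standard error was 0.09, and 46 of the 48 genes without a call had a 95% interval inside a 1.5-fold change either way. The count rests on the small number of arrays. It fell when any 1 anti-CD3 or B7-2 array was left out, and so did the share called over all genes. The median log2 change was 0.2 or 0.24 without anti-CD3 array 1 or 2, and 0.22 or 0.24 without B7-2 array 1 or 2. An intensity trend in the variance prior gave 41 calls (38 higher, 3 lower) and called 30% of all genes. The median gene tested had an intensity of 38, against 894 for the 73 genes. A filter on dim genes gave 28 calls among the 73 (27 higher, 1 lower) and called 38.8% of the genes it tested. Calls in both directions together were thus about as frequent among the 73 as among those genes.

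**Figure D2:**
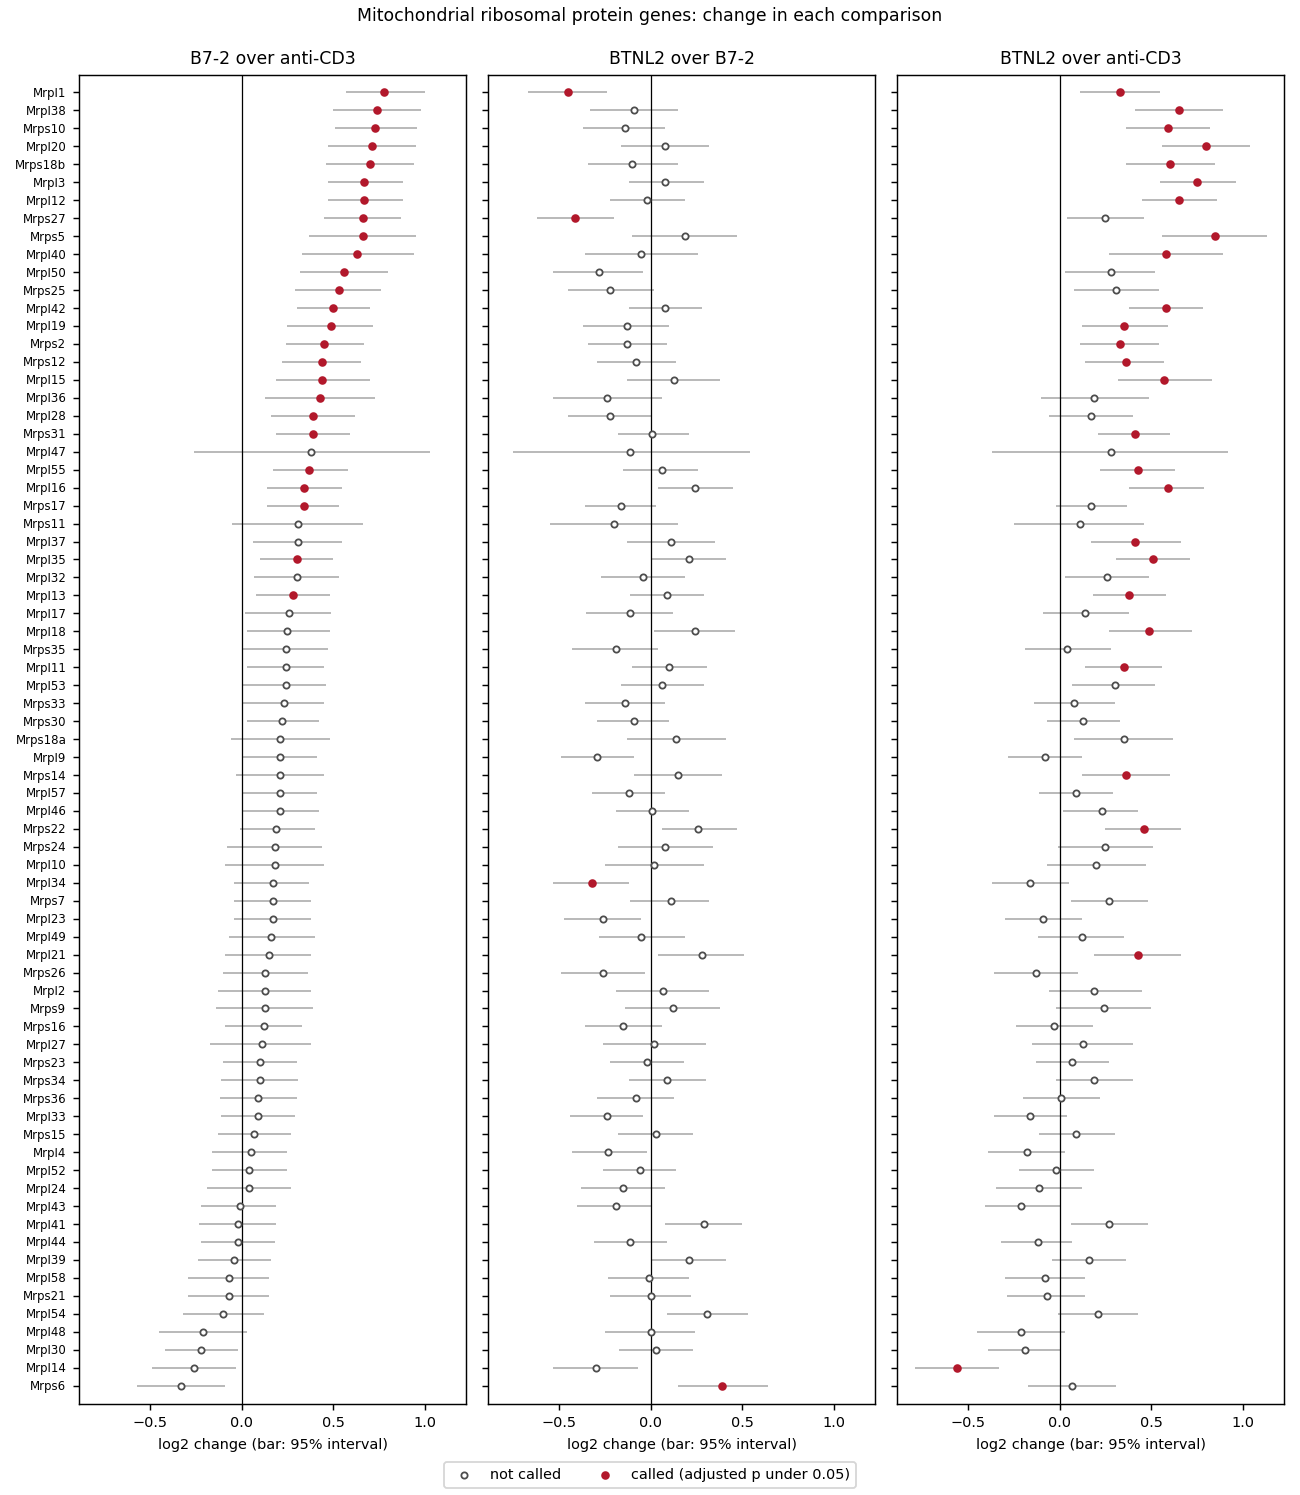
Log2 change of each of the 73 genes (y axis, ordered by the B7-2 over anti-CD3 change) in the 3 comparisons, with 95% intervals from limma. Filled red points are called at an adjusted p under 0.05, of which there are 25 in B7-2 over anti-CD3, 4 in BTNL2 over B7-2 and 26 in BTNL2 over anti-CD3.

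Large-subunit genes with the biggest rises included Mrpl1, the counterpart of the bacterial stalk protein L1. Mrpl1 read 1569 and 1476 in B7-2 wells, against 874 and 893 in anti-CD3 wells. Both B7-2 arrays stood far above both anti-CD3 arrays, and the log2 change was 0.78 ± 0.09 (SE; 1.72-fold, limma adjusted p = 0.00143). Mrpl38, a protein of the mitochondrial large subunit without a bacterial counterpart, read 308 and 313 in B7-2 wells, against 189 and 182 in anti-CD3 wells. Its change was 0.74 ± 0.10 (SE, limma adjusted p = 0.00254), and was 0.49 as the mean of its 3 probe sets. Of its 2 dimmer probe sets, that at a mean intensity of 51.6 rose by 0.76 (limma adjusted p = 0.00218 over all probe sets) and that at 45.5 changed by -0.03. Mrpl20, which in bacteria binds ribosomal RNA early in assembly, read 877 and 824 in B7-2 wells, against 486 and 555 in anti-CD3 wells, a change of 0.71 ± 0.10 (SE, limma adjusted p = 0.00302).

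Mrpl12 is the counterpart of the bacterial stalk protein L7/L12, which contacts translation factors. It read 2525 and 2439 in B7-2 wells, against 1521 and 1593 in anti-CD3 wells, a rise of 1.59-fold (limma adjusted p = 0.00204). Mrpl3, a core protein of the large subunit, read 600 and 646 in B7-2 wells, against 396 and 386 in anti-CD3 wells, also 1.59-fold (limma adjusted p = 0.00206). For both genes the duplicates differed far less than the groups did. The other called large-subunit genes were Mrpl40, Mrpl50, Mrpl42, Mrpl19, Mrpl15, Mrpl36, Mrpl28, Mrpl55, Mrpl16, Mrpl35 and Mrpl13, with log2 changes of 0.63 for Mrpl40 down to 0.28 for Mrpl13.

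Among small-subunit genes, Mrps10 read 656 and 731 in B7-2 wells, against 428 and 406 in anti-CD3 wells (log2 change 0.73 ± 0.10 SE, limma adjusted p = 0.00212). Mrps18b, whose promoter is printed above, read 2156 and 2015 in B7-2 wells, against 1232 and 1337 in anti-CD3 wells (0.70 ± 0.10 SE, limma adjusted p = 0.00337). Neither gene's groups overlapped, which the rule for naming these genes required. Both B7-2 arrays were above both anti-CD3 arrays in 56 of the 73 genes and in 5006 of all 17097 genes. Mrps27, a pentatricopeptide-repeat protein found only in mitochondrial ribosomes, read 404 and 392 in B7-2 wells, against 259 and 244 in anti-CD3 wells, a rise of 1.58-fold (limma adjusted p = 0.00234). Mrps5 read 117 and 136 in B7-2 wells, against 72.9 and 87.2 in anti-CD3 wells, also 1.58-fold (limma adjusted p = 0.00803, and 0.0510 without the first anti-CD3 array). Its log2 change was 0.66 on that probe set and 0.33 as the mean of its 4 probe sets (limma adjusted p = 0.0197). Mrps12, the counterpart of the bacterial decoding-site protein S12, read 887 and 837 in B7-2 wells, against 612 and 663 in anti-CD3 wells. Its change of 0.44 ± 0.09 (SE) had a limma adjusted p of 0.0132, which was 0.0854 when anti-CD3 array 1 was left out and 0.0751 when B7-2 array 1 was left out. The remaining called small-subunit genes were Mrps25, Mrps2, Mrps31 and Mrps17, with log2 changes of 0.53, 0.45, 0.39 and 0.34.

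Calls were made in 16 of 48 large-subunit genes and 9 of 25 small-subunit genes, with median log2 changes of 0.22 and 0.21. Genes with a bacterial counterpart gave 17 calls of 44, and genes found only in mitochondria 8 of 29, with medians of 0.25 and 0.21. Mrps18b and Mrps18a are both related to bacterial S18, but the Mrps18a protein sits in the large subunit. Mrps18a read 661 and 583 in B7-2 wells, against 498 and 581 in anti-CD3 wells, with a change of 0.21 ± 0.11 (SE) that did not pass (limma adjusted p = 0.249). Mrps30, another large-subunit protein with a small-subunit name, read 1479 and 1436 in B7-2 wells, against 1247 and 1248 in anti-CD3 wells (0.22 ± 0.08 SE, limma adjusted p = 0.0993). The difference between Mrps18b and Mrps18a was not tested.

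Rises were also counted in genes with and without each motif. Of the 65 genes with a window, calls were made in 4 of 23 with the ETS motif, against 17 of 42 without it, in 4 of 11 with the YY1 motif, against 17 of 54 without it, and in 1 of 7 with the NRF1 motif, against 20 of 58 without it. The E-box was in 2 of the called genes among its 4, against 19 of 61 without it. These counts are a description and were not tested. Of 20 members with a measured facing neighbour, 6 rose. In 1 of those 6 pairs the neighbour rose as well, which was Hira, a histone chaperone gene, with a log2 change of 0.76 beside 0.63 for Mrpl40.

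**Figure D3:**
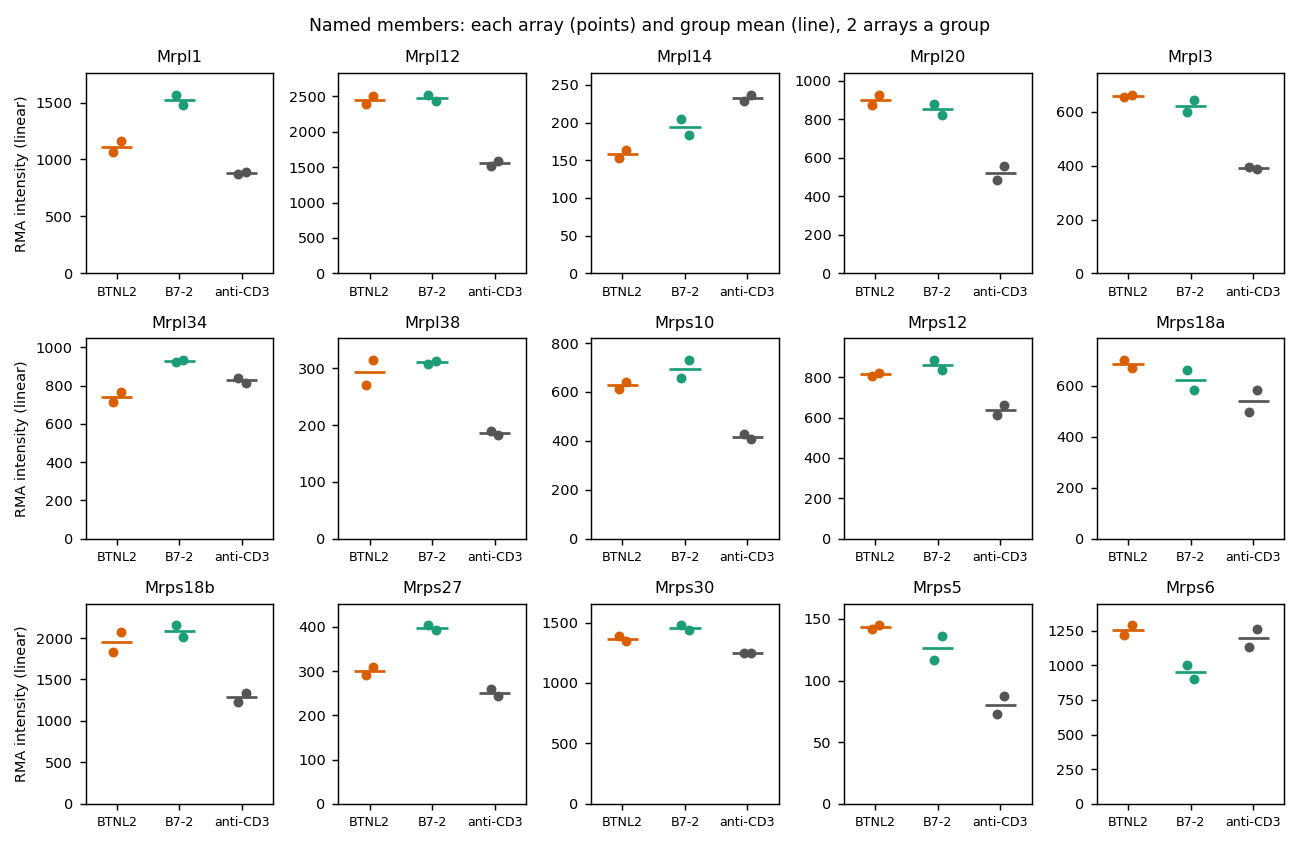
RMA intensity (y axis, linear, from 0) of 15 named genes on each array, with BTNL2 wells left, B7-2 wells in the middle and anti-CD3 wells right, and a line at the mean of 2 arrays. Mrpl12 reads 2388 to 2525 in the BTNL2 and B7-2 wells and 1521 and 1593 in anti-CD3 wells, whereas Mrpl1 is highest in B7-2 wells at 1569 and 1476.

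The second comparison asked what BTNL2 changed in the presence of B7-2. Relative to B7-2 wells, Mrps6 alone rose (1 gene, 1.37%) and Mrpl1, Mrps27 and Mrpl34 fell (3 genes, 4.11%) in BTNL2 wells. Over all genes, 9.52% rose and 10.8% fell. The median log2 change was -0.02, close to -0.01 over all genes, with 32 genes above and 41 below 0. Without adjustment, 9 genes were higher and 10 lower at p under 0.05. On the chosen probe sets, changes lay between -0.45 for Mrpl1 and 0.39 for Mrps6, and none reached 1.5-fold. Of the 69 genes without a call, 68 had a 95% interval inside 1.5-fold either way, the exception being the dim Mrpl47. Some probe sets that were not chosen changed by more, among them one of Mrpl15 given below. The 4 calls became 0 when BTNL2 array 1 was left out (7 genes at an unadjusted p under 0.05, limma) and 0 when B7-2 array 1 was left out (9 genes). They became 2 when BTNL2 array 2 and 1 when B7-2 array 2 was left out. An intensity trend in the variance prior gave 20 calls (9 higher, 11 lower) and a filter on dim genes 11 (4 higher, 7 lower), settings that called 25.8% and 32.4% of the genes they tested.

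Mrps6, the counterpart of bacterial S6, read 1217 and 1291 in BTNL2 wells, against 1005 and 905 in B7-2 wells. Its log2 change of 0.39 ± 0.10 (SE) had a limma adjusted p of 0.0353, which lay between 0.0635 and 0.162 when any 1 of these 4 arrays was left out. Anti-CD3 wells read 1136 and 1260, in the range of the BTNL2 wells. Mrpl1 read 1064 and 1160 in BTNL2 wells, against 1569 and 1476 in B7-2 wells, a change of -0.45 ± 0.09 (SE, limma adjusted p = 0.0138). That adjusted p was 0.0816 when B7-2 array 1 was left out and 0.0751 when BTNL2 array 1 was left out.

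Mrps27 read 291 and 309 in BTNL2 wells, against 404 and 392 in B7-2 wells, a change of -0.41 ± 0.09 (SE, limma adjusted p = 0.0184). Without the first B7-2, the second B7-2 or the first BTNL2 array, its adjusted p was 0.0941, 0.0650 or 0.0919. Mrpl34, the counterpart of bacterial L34, read 715 and 768 in BTNL2 wells, against 921 and 934 in B7-2 wells, a change of -0.32 ± 0.09 (SE, limma adjusted p = 0.0403). Its call was lost without any 1 of the 6 arrays, with adjusted p of 0.0633 to 0.167. In each of these 4 genes the arrays of the groups did not overlap, which the rule for naming them required. Of the 73 genes, both BTNL2 arrays were above both B7-2 arrays in 22 and below them in 28. Of all 17097 genes, they were above in 4769 and below in 5306.

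Of the 10 genes that B7-2 raised by more than 1.5-fold, all but Mrpl1 and Mrps27 had no call when BTNL2 was added. Mrpl12 read 2388 and 2512 in BTNL2 wells, against 2525 and 2439 in B7-2 wells, a log2 change of -0.02 with a 95% interval of -0.22 to 0.19. Mrpl20 read 876 and 927 in BTNL2 wells, against 877 and 824 in B7-2 wells (0.08, interval -0.16 to 0.32). Mrps18b read 1833 and 2073 in BTNL2 wells, against 2156 and 2015 in B7-2 wells (-0.10, interval -0.34 to 0.15). The groups overlapped in all of these. Mrpl3, Mrpl38, Mrps10, Mrps5, Mrps12, Mrps18a and Mrps30 also had no call, with log2 changes of 0.08, -0.09, -0.14, 0.19, -0.08, 0.14 and -0.09 and limma adjusted p of 0.348 for Mrps5 to 0.612 for Mrps12. Both subunits stayed close to 0, with medians of -0.02 for large-subunit and -0.08 for small-subunit genes.

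**Figure D4:**
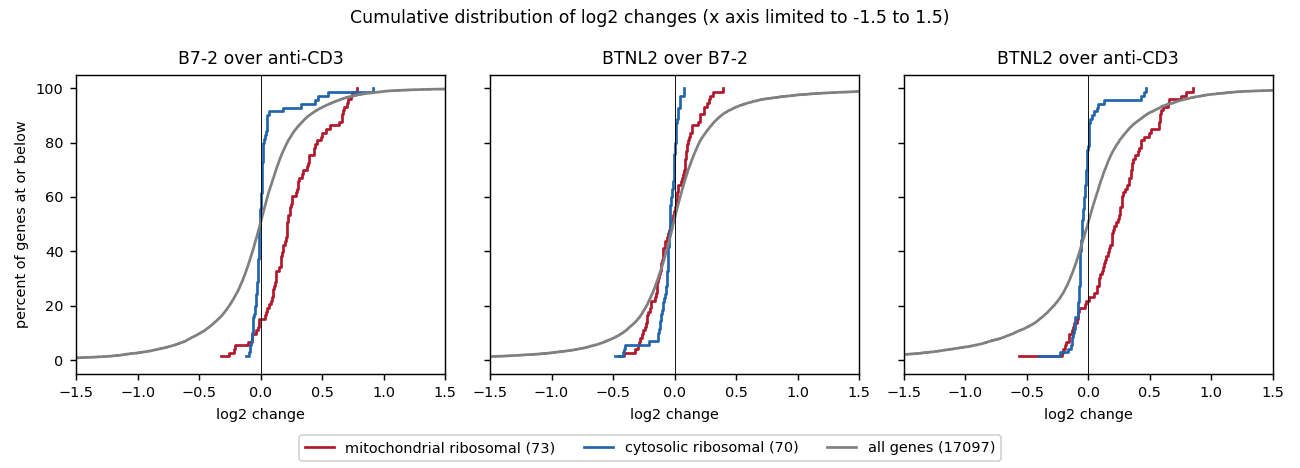
Cumulative percent of genes (y axis) by log2 change (x axis, limited to -1.5 to 1.5) in the 3 comparisons, for 73 mitochondrial ribosomal (red), 70 cytosolic ribosomal (blue) and all 17097 genes (grey). At the middle of the y axis the red line lies right of the others in both comparisons with anti-CD3 wells, with medians of 0.21 and 0.23, and near them in BTNL2 over B7-2, with a median of -0.02.

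The third comparison set BTNL2 wells, which also carried B7-2, against anti-CD3 wells, and shares its arrays with the other comparisons. Here 25 genes (34.2%) rose and 1 (1.37%) fell, whereas over all genes 14.2% rose and 16.2% fell. The median log2 change was 0.23, from -0.56 for Mrpl14 to 0.85 for Mrps5, with 57 genes above and 16 below 0. The median over the 48 large-subunit genes was 0.22 (17 rose, 1 fell) and that over the 25 small-subunit genes 0.24 (8 rose). Changes of called genes ran from 1.25-fold to 1.80-fold, and 8 rises exceeded 1.5-fold. Without the first anti-CD3 array 13 genes were called in place of 26, and a variance prior with an intensity trend gave 41 (36 higher, 5 lower).

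Mrps5, the counterpart of bacterial S5, read 142 and 145 in BTNL2 wells, against 72.9 and 87.2 in anti-CD3 wells, a rise of 1.80-fold (log2 change 0.85 ± 0.12 SE, limma adjusted p = 0.00193). Its other 3 probe sets changed by 0.60, 0.38 and 0.21, and the mean of the 4 by 0.51 (limma adjusted p = 0.00233). Mrpl20 rose by 1.74-fold (limma adjusted p = 0.00118) and Mrpl3 by 1.69-fold (limma adjusted p = 0.00078), with 655 and 664 in BTNL2 wells, against 396 and 386 in anti-CD3 wells for Mrpl3. Mrpl12 and Mrpl38 each rose by 1.57-fold, Mrps18b by 1.52-fold and Mrps10 by 1.5-fold, with limma adjusted p of 0.0014, 0.00281, 0.00418 and 0.0034. In all 7 of these genes both BTNL2 arrays were above both anti-CD3 arrays, which the rule for naming genes required of all but Mrps10. The same held for 50 of the 73 genes and for 5267 of all 17097 genes.

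Mrps12 read 806 and 824 in BTNL2 wells, against 612 and 663 in anti-CD3 wells (log2 change 0.36, limma adjusted p = 0.023), but its adjusted p was 0.0510 to 0.127 without any 1 of these 4 arrays. Mrpl1 was still higher in BTNL2 wells than in anti-CD3 wells, by 0.33 ± 0.09 (SE, limma adjusted p = 0.0324), a call lost without either anti-CD3 array (0.132 and 0.105) or the second BTNL2 array (0.138). Mrps27 did not pass (0.25 ± 0.09 SE, limma adjusted p = 0.0736). The comparisons of BTNL2 and of B7-2 wells share the anti-CD3 arrays, so their calls are not independent. Genes called higher in BTNL2 wells and not in B7-2 wells were Mrpl18, Mrps22, Mrpl21, Mrpl37, Mrps14 and Mrpl11, with log2 changes of 0.49, 0.46, 0.43, 0.41, 0.36 and 0.35. In B7-2 over anti-CD3 these changed by 0.25, 0.19, 0.15, 0.31, 0.21 and 0.24, and in BTNL2 over B7-2 by 0.24, 0.26, 0.28, 0.11, 0.15 and 0.10, none of them called. Mrpl11 was read from a probe set with a suffix for possible cross-hybridisation. Genes called higher in B7-2 wells and not in BTNL2 wells were Mrps27, Mrpl50, Mrps25, Mrpl36, Mrpl28 and Mrps17, with log2 changes of 0.25, 0.28, 0.31, 0.19, 0.17 and 0.17 in BTNL2 over anti-CD3 and of 0.66, 0.56, 0.53, 0.43, 0.39 and 0.34 in B7-2 over anti-CD3. The differences between these comparisons are the BTNL2 over B7-2 changes, of which that of Mrps27 was called.

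Mrpl14, which lies at the face of the large subunit where the small subunit joins, was the single gene that fell. It read 153 and 163 in BTNL2 wells, 205 and 184 in B7-2 wells, and 228 and 237 in anti-CD3 wells. No array of a group overlapped those of another, which the rule for naming genes required of the BTNL2 and anti-CD3 arrays. The log2 change between BTNL2 and anti-CD3 wells was -0.56 ± 0.10 (SE; 1.47-fold lower, limma adjusted p = 0.00431). Malsu1, the assembly factor that binds Mrpl14 in the large subunit, read 573 and 572 in BTNL2 wells, 802 and 742 in B7-2 wells and 811 and 838 in anti-CD3 wells. Its log2 change was -0.53 against anti-CD3 wells (limma adjusted p = 0.00378) and -0.43 against B7-2 wells (limma adjusted p = 0.0143).

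Several genes were measured by more than 1 probe set. Of the 73 genes, 38 had several, and in no comparison did probe sets of 1 gene get calls in opposite directions when each was tested. Of the genes that rose, 14 had several probe sets in B7-2 over anti-CD3, and in 9 of them another probe set rose as well. In BTNL2 over anti-CD3 this held for 11 of 14. Mrpl14's second probe set, at a mean intensity of 9.6, changed by -0.01 in that comparison, and the mean of both by -0.28 (limma adjusted p = 0.0458). In BTNL2 over B7-2, 2 of the genes that fell had several probe sets. For Mrpl34 another also fell (-0.39), and for Mrpl1 the others, at -0.25 and -0.67, had no call. A dimmer probe set of Mrpl15 (mean intensity 46.6) rose by 0.93 (limma adjusted p = 0.00323 over all probe sets), against 0.13 on the chosen one. Dimmer ones of Mrps25 and Mrps11 were called lower, at -0.54 and -0.39.

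Genes that work with the mitochondrial ribosome were read from lists by role. For reference, 11.2% of all genes rose and 13.3% fell in B7-2 over anti-CD3. These shares were 9.52% and 10.8% in BTNL2 over B7-2, and 14.2% and 16.2% in BTNL2 over anti-CD3. Of 4 mitochondrial ribosomal proteins with other names, Ptcd3 (0.59) and Chchd1 (0.44) rose in B7-2 over anti-CD3, with limma adjusted p of 0.00762 and 0.00968. In BTNL2 over B7-2 all 4 changes were negative, with a median of -0.22, and Gadd45gip1, a large-subunit protein, fell by 0.36 (limma adjusted p = 0.0381). Of 8 translation factors, 4 rose: Gfm1, Gfm2, Tsfm and Tufm. Gfm1, the elongation factor that moves the ribosome along the message, read 668 and 689 in B7-2 wells, against 324 and 334 in anti-CD3 wells, a rise of 2.06-fold (limma adjusted p = 0.00045). It read 626 and 643 in BTNL2 wells, 1.93-fold above anti-CD3 wells (limma adjusted p = 0.000255) and not called against B7-2 wells (log2 change -0.10). Tsfm and Tufm, the exchange factor and the factor that delivers tRNA, rose by 0.52 and 0.39, although the probe set of Tufm carries a suffix for possible cross-hybridisation.

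Gfm2, which releases ribosomes after translation, read 73.3 and 68.4 in BTNL2 wells, 108 and 103 in B7-2 wells, and 74.8 and 66.3 in anti-CD3 wells. It rose by 0.58 in B7-2 over anti-CD3 (limma adjusted p = 0.00594) and fell by 0.57 in BTNL2 over B7-2 (limma adjusted p = 0.00708). Levels in BTNL2 and anti-CD3 wells overlapped. The comparisons share the B7-2 arrays, so the pair of changes is not independent, here and for every other gene with such a pair.

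Of 19 genes for assembly and modification of the mitochondrial ribosome and its RNAs, 6 rose in B7-2 over anti-CD3, among them Lrpprc (0.93), which stabilises mitochondrial messages, Rcc1l (0.91), and the GTPases Mtg1 (0.73) and Noa1 (0.72), with limma adjusted p of 0.000627, 0.000771, 0.00137 and 0.0014. In BTNL2 over B7-2, 3 of the 19 fell, namely Malsu1, Mtg1 (-0.49, limma adjusted p = 0.00677) and Rcc1l (-0.34, limma adjusted p = 0.0347), and Mterf3, a large-subunit assembly and transcription factor, rose by 0.44 (limma adjusted p = 0.0134). Against anti-CD3 wells 8 rose and 1 fell in BTNL2 wells.

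Of 15 mitochondrial aminoacyl-tRNA synthetases, which charge tRNAs for this ribosome, 6 rose in B7-2 over anti-CD3 and 3 fell in BTNL2 over B7-2. Mars2, for methionine, rose by 0.84 (limma adjusted p = 0.00152) and changed by -0.08 between BTNL2 and B7-2 wells. Iars2, for isoleucine, rose by 0.70 with B7-2 and fell by 0.47 with BTNL2 (limma adjusted p of 0.00434 and 0.0242). Fars2, for phenylalanine, read 98.4 and 120 in BTNL2 wells, 217 and 193 in B7-2 wells and 157 and 151 in anti-CD3 wells, and fell by 0.91 in BTNL2 over B7-2 (limma adjusted p = 0.00226). Its probe set also carries the cross-hybridisation suffix.

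Of 10 genes for mitochondrial DNA replication and transcription, 2 rose in B7-2 over anti-CD3. Top1mt, the mitochondrial topoisomerase, read 136 and 145 in BTNL2 wells, 220 and 215 in B7-2 wells, and 90.5 and 73.7 in anti-CD3 wells. It rose by 2.67-fold in B7-2 over anti-CD3 (limma adjusted p = 0.000465) and was 1.55-fold lower in BTNL2 than in B7-2 wells (limma adjusted p = 0.00941). Twnk rose by 0.37 (limma adjusted p = 0.022). Of the inner membrane insertases that receive the new proteins, Cox18 rose by 0.42 in B7-2 over anti-CD3 (limma adjusted p = 0.0194), whereas Oxa1l fell by 0.53 in BTNL2 over anti-CD3 (limma adjusted p = 0.00374).

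Of 8 regulators of mitochondrial biogenesis, 4 rose in B7-2 over anti-CD3 and 2 fell in BTNL2 over B7-2. Myc, a transcription factor of cell growth, read 95.3 and 109 in BTNL2 wells, 178 and 236 in B7-2 wells, and 133 and 92.4 in anti-CD3 wells. It rose by 1.85-fold in B7-2 over anti-CD3 (limma adjusted p = 0.0188) and fell by 1.0 on the log2 scale in BTNL2 over B7-2 (limma adjusted p = 0.0135). Pprc1, a coactivator of the PGC-1 family, changed by 0.46 and -0.33 in these comparisons (limma adjusted p of 0.00872 and 0.0366). Gabpa, the DNA-binding subunit of GABP, rose by 0.49 and Ppargc1b, another PGC-1 coactivator, by 0.50 in B7-2 over anti-CD3, and neither was called in BTNL2 over B7-2. Nrf1 and Yy1 had no call in any comparison, with log2 changes of -0.17 to 0.24 for Nrf1 and 0.08 to 0.19 for Yy1.

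Neither cytosolic ribosomal proteins nor respiratory chain subunits had such a share of rises. Of 70 cytosolic ribosomal protein genes, 5 rose in B7-2 over anti-CD3 (median log2 change -0.01), 4 fell in BTNL2 over B7-2 (-0.04), and 3 rose and 1 fell in BTNL2 over anti-CD3 (-0.05). Their median intensity was 7370, against 894 for the mitochondrial genes, and a bright probe set can compress a change, which was not tested. Of 78 nuclear genes for the respiratory chain and ATP synthase, 8 rose and 6 fell in B7-2 over anti-CD3 (median 0.05), 1 rose and 6 fell in BTNL2 over B7-2 (-0.01), and 8 rose and 8 fell in BTNL2 over anti-CD3 (0.04). The differences between the lists were not tested.

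**Figure D5:**
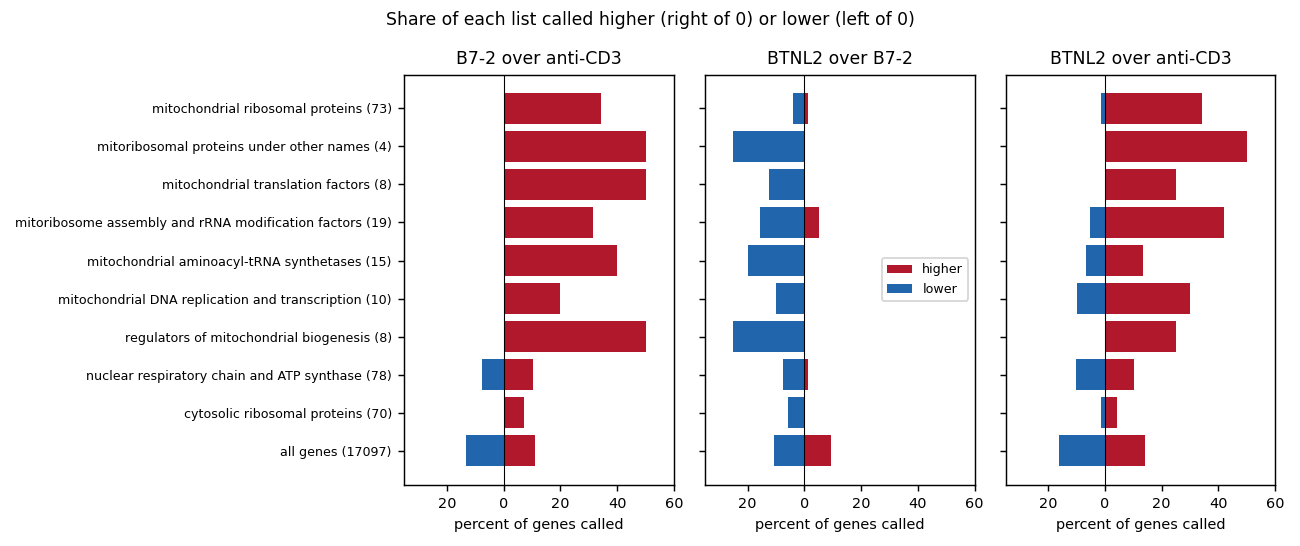
Percent of each gene list called higher (red, right of 0) or lower (blue, left of 0) in the 3 comparisons, with the number of genes in brackets. For the 73 mitochondrial ribosomal protein genes the red bar is 34.2% in both comparisons with anti-CD3 wells and 1.37% in BTNL2 over B7-2, against 11.2%, 14.2% and 9.52% of all genes.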

How the data were processed

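RNA of 6 cultures was amplified from 50 ng and hybridised to 1 one-colour array each, per the labels' protocols. The deposited values are probe set intensity on a linear scale, made with RMA per the submitters' processing notes. For RMA a version, and for the files a genome build, is not given in the sources used here. RMA makes arrays alike in distribution, so a shift common to most genes would not be seen.

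Intensities were log2 transformed, as the design had foreseen for a linear table. Of 45141 probe sets, 104 were controls, 28898 had 1 symbol and 551 had several. 6 probe sets naming a member and another gene were left out. Each gene was read from its probe set of highest mean, without a filter on dim genes. Groups were compared in R 4.3.3 by limma 3.58.1 (lmFit, eBayes), two-sided, with all 6 arrays in 1 fit (3 residual and 4.02 prior degrees of freedom), and adjusted by Benjamini-Hochberg over 17097 genes at a threshold of 0.05. The number of arrays limits the precision. These steps were also run on simulated data in which 200 genes changed, made with the gene means and fitted variances of these arrays. The outcome of that run is not given here.

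Members and lists were chosen with earlier results of these data known. Named members were the 6 largest rises and falls among called members whose arrays did not overlap, with Mrpl12, Mrps12, Mrps18a, Mrps18b and Mrps30 followed throughout. Pathway genes and the members listed by name alone were chosen after their values were seen. Promoter windows (250 bases before to 50 after the start) came from RefSeq, GRCm38.p6, and the stretch printed ends 30 bases after it. Alternatives changed the variance prior, arrays, filter (40th percentile), scaling, probe set choice, replicate block and each array in turn.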

Additional observations from a re-analysis of the deposited data

How the results depend on the processing

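The median change of the 73 genes moved by less than the spread between duplicates under every alternative run. An intensity trend in the variance prior raised the called genes to 41 (38 higher, 3 lower) in B7-2 over anti-CD3, 20 (9 higher, 11 lower) in BTNL2 over B7-2 and 41 (36 higher, 5 lower) in BTNL2 over anti-CD3, where it also called 30%, 25.8% and 34.7% of all genes. In BTNL2 over B7-2 a filter on dim genes gave 11 calls (4 higher, 7 lower). Testing each probe set counts the 129 probe sets of the 73 genes rather than genes. Of these 129, 7 were called in BTNL2 over B7-2 (2 higher, 5 lower). In BTNL2 over anti-CD3 44 of the 129 probe sets were called (43 higher, 1 lower). In B7-2 over anti-CD3 37 of the 129 were called, all higher, where 21.4% of all probe sets tested were called. Leaving out each array in turn gave 10 to 23 calls in B7-2 over anti-CD3, 0 to 3 in BTNL2 over B7-2 (where the settings with 0 had 9 and 7 genes at an unadjusted p under 0.05, limma) and 13 to 24 in BTNL2 over anti-CD3. With 1 array left in a group, that array is assumed to vary like the others. Same-numbered arrays of different groups did not deviate together (r of -0.0641, -0.000967 and -0.0272). With 2 arrays a group, this cannot exclude that same-numbered cultures shared an animal or a day. With the replicate block, calls were 21, 2 and 22, and in B7-2 over anti-CD3 it called 22.0% of all genes. Mrps6 and Mrpl34 lost their calls in BTNL2 over B7-2 and Mrpl1 in BTNL2 over anti-CD3. Uncalled changes near 0 turned sign: Mrpl12 in BTNL2 over B7-2 to 0.01 under quantile normalization, with a range of -0.06 to 0.02 when 1 array was left out, Mrpl38 in that comparison with a range of -0.2 to 0.02, and Mrps6 in BTNL2 over anti-CD3 with a range of -0.01 to 0.14. Mrps6 passed as lower in B7-2 over anti-CD3 under 4 alternatives (trend, filter, quantile normalization and mean of probe sets), with adjusted p of 0.00303 to 0.0483. The trend changes the variance prior and the filter the genes tested. Why calls changed was not tested for any setting. Mrpl47, with a standard error of 0.27, could not be measured to within 1.5-fold.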
